A study of Canis lupus familiaris with 18 samples.

Results

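The transcripts of TGFB1 and TGFB3, 2 ligands of the transforming growth factor β (TGF-β) family, and of SMURF1 and SMURF2, 2 ubiquitin ligases that act on the same pathway, were followed in cAD-MSCs, mesenchymal stem cells grown from canine fat. They were chosen by gene symbol and are 4 of the 84 genes of an RT-qPCR array for canine mesenchymal stem cells. RNA came from the cultured cells of 9 clinically healthy female dogs, taken at passage 6 (P6, 9 samples) and at passage 3 (P3, 9 samples). Both passages came from the same dogs. The labels give no breed, age or genotype, and the study's methods describe donors of several breeds and ages. No agent was compared. All cultures started from the stromal vascular fraction of abdominal fat after collagenase digestion and grew in low-glucose medium with fetal bovine serum and penicillin/streptomycin, so P6 differed from P3 by the number of subcultures and the time in culture. The study asked how this in vitro aging alters the expression of the cells, and the donors are named here by their biological replicate number, 1 to 9.

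TGF-β ligands are secreted in a latent form, are released from it by integrins, proteases and other factors, and bind a pair of serine/threonine kinase receptors. The receptors phosphorylate SMAD proteins, which join SMAD4 and change transcription in the nucleus. SMURF1 and SMURF2 are HECT-type E3 ligases that mark SMADs and, together with the inhibitory SMADs, the receptors for degradation, as worked out mainly in human and mouse cells. In mesenchymal stem cells TGF-β is known for driving matrix production and chondrogenesis and for holding back fat cell differentiation, and TGFB3 is widely used to induce cartilage in culture.

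Each well gave a threshold cycle (CT), the amplification cycle in which its fluorescence passed a fixed level. The more transcript a well held, the earlier its CT. The geometric mean CT of 5 reference genes (ACTB, B2M, HPRT1, PGK1 and RPL13A) was subtracted from the CT of each gene and the sign was turned. The result, −ΔCT, is a log2 level relative to the reference genes, on which 1 unit is a 2-fold difference. The reference mean was 14.65 ± 0.321 cycles at P6 and 14.85 ± 0.508 cycles at P3 (SD, n = 9 donors each). Of the 84 genes, 72 to 77 per sample crossed the threshold before the limit of 35 cycles at P6, and 75 to 81 at P3. One sample stood apart: donor 5 at P3 had a reference mean of 15.71 cycles, the latest of the 18 samples, and the highest level of the 9 P3 samples in 21 of the 51 genes detected everywhere. Its median level over those genes was 0.70 above the median of its passage. Of the markers of mesenchymal stem cells on the array (THY1, ENG, NT5E, CD44, ITGB1 and VCAM1), 5 of 6 were detected in all samples, with mean CT values of 16.05 to 23.67 for the 6 genes. The leukocyte markers PTPRC and ITGAX had mean CT values of 31.29 and 31.66, and 0 of 2 were detected in all samples. Both means were lower at P6, with differences of −4.38 for PTPRC and −4.91 for ITGAX. Of the 2, only PTPRC was called (limma adjusted p = 0.0300, against 0.0519 for ITGAX). With the donor as a block ITGAX passed as well (limma adjusted p = 0.0238). The log2 of their summed level ranged from −19.87 to −15.52 at P6 and from −15.19 to −6.59 at P3. Its part in the results on the 4 genes was not tested. None of the 2 endothelial, 3 adipocyte and 3 smooth muscle or pericyte markers was called in either direction, where 1 of all 84 genes was. The adipocyte markers ADIPOQ and LPL still differed by −3.29 and −3.41, each lower at P6 in 8 of 9 donors. Their limma p was 0.0205 and 0.0106 before adjustment and 0.345 and 0.222 after it. The third, PPARG, differed by 2.63 (limma adjusted p = 0.873), with a difference of medians of −0.71.

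All 4 transcripts were readily measured, with CT values from 16.90 to 23.40 cycles at P6 and from 18.87 to 24.20 cycles at P3, far from the limit, so detection (9 of 9 samples at P6 and 9 of 9 at P3 for each gene) needed no test. SMURF2 crossed first of the 4, with a mean CT of 19.22 over all samples, the 17th earliest of the 84 genes. TGFB1 followed at 19.81 (22nd), TGFB3 at 20.99 (30th) and SMURF1 at 21.26 (33rd), while the median gene of the array lay at 22.89. CT values of different assays also carry the efficiency of each primer pair, so this order is one of signals and not of transcript copies. SMURF2 lay above SMURF1 in 18 of 18 samples. TGFB1 lay above TGFB3 in 16 of 18 samples, 9 of 9 at P6 and 7 of 9 at P3. SMURF2 lay above TGFB1 in 13 of 18 samples, and TGFB3 above SMURF1 in 10 of 18. Neighbours in this order therefore overlapped, and TGFB3 and SMURF1 could not be ordered beyond the spread between donors.

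None of the 4 genes passed the test of P6 against P3. The ranges of the 2 passages overlapped in each of them, but they were also separate in 0 of all 84 genes. Over the 84 genes limma called 1 (1.19%, PTPRC, lower at P6) at an adjusted p under 0.05 and 5 (5.95%) at an unadjusted p under 0.05, and 0 of the 4 genes were among either. With the donor as a block, limma called 2 genes (2.38%) after adjustment and 7 (8.33%) before it, and again 0 of the 4 in either count. The methods' test, an unpaired test of the linear levels, had 4 genes (4.76%) at an unadjusted p under 0.05, with 0 of the 4 among them, and the exact permutation test of −ΔCT also had 0 of the 4. The passage means differed by at least 2-fold in 31 of 84 genes (36.9%), 10 higher (11.9%) and 21 lower (25.0%) at P6, and in 0 of the 4. In 9 of 84 genes (10.7%) at least 7 of 9 donors were higher at P6, and in 12 (14.3%) at least 7 were lower, with 0 of the 4 in either count. The 4 differences had a median of 0.14 on the log2 scale, beside −0.046 over all 84 genes. The plot of levels by donor shows the 18 values of each gene.

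**Figure D1:**
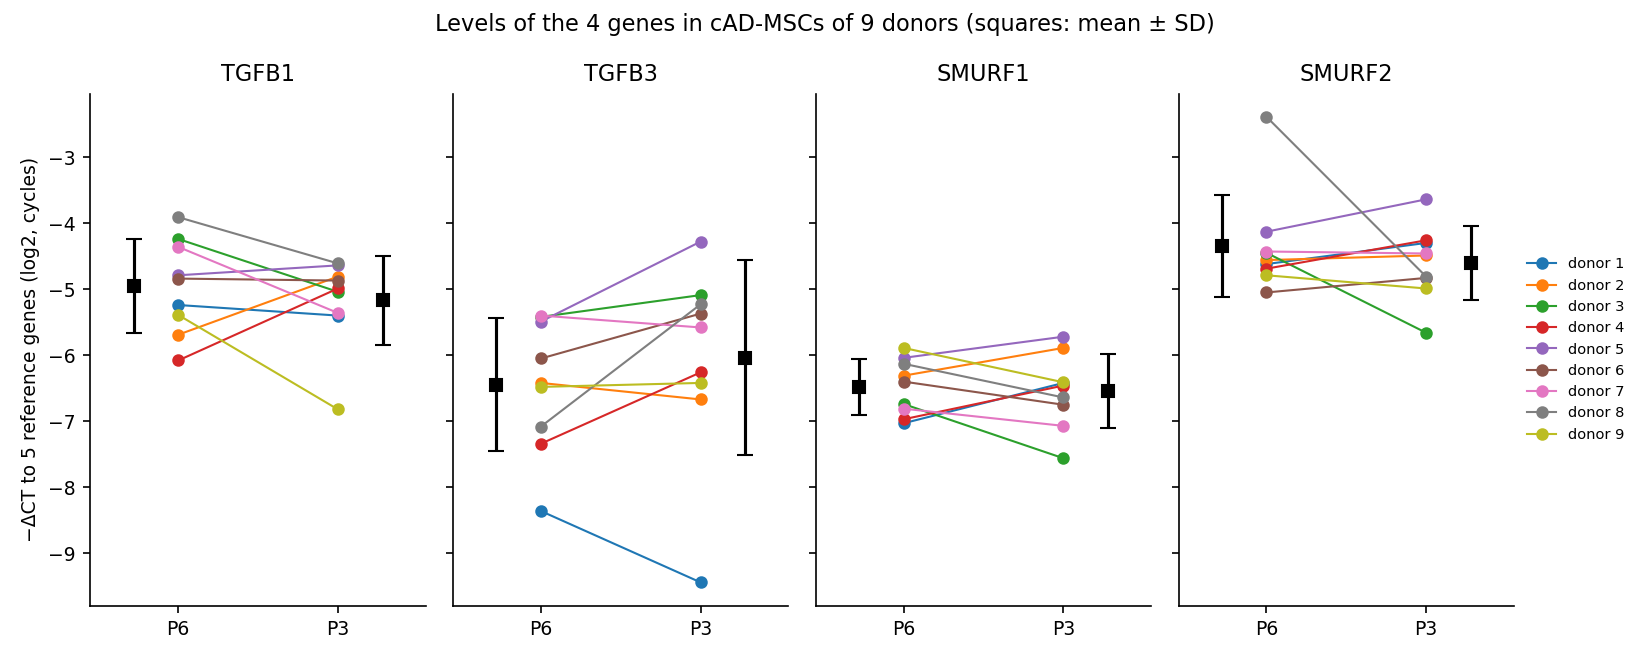
Level of TGFB1, TGFB3, SMURF1 and SMURF2 (−ΔCT to 5 reference genes, log2) in cAD-MSCs at P6 (left of each panel) and P3 (right). Circles joined by a line are the 2 samples of 1 donor, and black squares with bars are the mean ± SD of 9 donors. The passages overlap in all 4 genes, as in all 84 of the array. TGFB3 of donor 1 lies lowest at both passages, and SMURF2 of donor 8 at P6 (−2.39) lies above every other SMURF2 value.

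TGFB1, the most widely expressed ligand of the family, had nearly the same mean at both passages, while single donors moved up or down by more than 2-fold. Its −ΔCT had a lowest value of −6.08 (donor 4), a median of −4.84 and a highest of −3.91 (donor 8) at P6, and a lowest of −6.82 (donor 9), a median of −4.99 and a highest of −4.61 (donor 8) at P3. Donor 8 was thus the highest at both passages, and every P6 value lay inside or above the range at P3. The means were −4.95 ± 0.713 at P6 and −5.17 ± 0.678 at P3 (SD, n = 9 donors each), or 3.24% and 2.78% of the reference level. The means differed by 0.22 on the log2 scale (standard error, SE, 0.371, limma adjusted p = 0.910), a 1.16-fold level at P6 with a 95% interval of 0.678 to 2.00. TGFB1 was higher at P6 in 6 of 9 donors, by 1.43 in donor 9 and 1.00 in donor 7, and lower by 1.09 in donor 4 and 0.88 in donor 2. Without donor 9, whose P3 sample was the lowest of the 18, the difference was 0.068 (adjusted p = 0.991 from limma).

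TGFB3, the ligand used to induce cartilage, varied most of the 4 genes between donors, and the same donor was lowest at both passages. Its −ΔCT had a lowest value of −8.36 (donor 1), a median of −6.42 and a highest of −5.40 (donor 7) at P6, and a lowest of −9.44 (donor 1), a median of −5.58 and a highest of −4.28 (donor 5) at P3. The span between the lowest and the highest donor was 7.77-fold at P6 and 35.7-fold at P3, against 4.49-fold and 4.64-fold for TGFB1. Donor 1 had 0.305% of the reference level at P6 and 0.144% at P3. The means were −6.45 ± 1.00 at P6 and −6.04 ± 1.48 at P3 (SD, n = 9 donors each). The means differed by −0.41 (SE 0.600, limma adjusted p = 0.873), a 0.751-fold level at P6 with a 95% interval of 0.313 to 1.80. TGFB3 was lower at P6 in 6 of 9 donors, most in donor 8 (−1.86), donor 5 (−1.21) and donor 4 (−1.08), and it was higher by 1.08 in donor 1. The standard error was 0.336 with the donor as a block (95% interval −1.17 to 0.34, adjusted p = 0.741 from limma).
The difference was −0.60 without donor 1, −0.23 without donor 8 and −0.31 without donor 5, the sample that stood apart at P3.

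SMURF1, the ligase named for its action on the SMADs of the BMP branch and also known to degrade RHOA, was the steadiest of the 4 genes. Its −ΔCT had a lowest value of −7.03 (donor 1), a median of −6.40 and a highest of −5.89 (donor 9) at P6, and a lowest of −7.56 (donor 3), a median of −6.46 and a highest of −5.72 (donor 5) at P3. The P6 values lay wholly inside the range of the P3 values. The means were −6.48 ± 0.420 at P6 and −6.54 ± 0.559 at P3 (SD, n = 9 donors each). The means differed by 0.064 (SE 0.300, limma adjusted p = 0.982), a 1.05-fold level at P6 with a 95% interval of 0.675 to 1.62. SMURF1 was higher at P6 in 5 of 9 donors, and its changes within donors ran from −0.61 in donor 1 to 0.82 in donor 3. The sign of so small a difference was not fixed: it was −0.030 without donor 3 and −0.10 with the median of the detected genes in place of the reference genes, and 0.11 without donor 5.

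SMURF2, which with inhibitory SMADs targets the TGF-β receptors, had 1 sample far from the rest. Its −ΔCT had a lowest value of −5.05 (donor 6), a median of −4.56 and a highest of −2.39 (donor 8) at P6, and a lowest of −5.66 (donor 3), a median of −4.49 and a highest of −3.64 (donor 5) at P3. The P6 sample of donor 8 reached 19.0% of the reference level, and the other 8 samples of P6 lay between 3.02% and 5.71%. Its raw CT was 16.90 cycles, with a reference mean of 14.51 cycles in the same sample. The means were −4.35 ± 0.776 at P6 and −4.60 ± 0.562 at P3 (SD, n = 9 donors each). The means differed by 0.26 (SE 0.364, limma adjusted p = 0.873), a 1.19-fold level at P6 with a 95% interval of 0.702 to 2.03. SMURF2 was lower at P6 in 5 of 9 donors in spite of the higher mean, the medians differed by −0.073, and without donor 8 the difference of means was −0.014 (adjusted p = 0.995 from limma). Without donor 5 it was 0.35.

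The spread between donors was small for this array in SMURF1, SMURF2 and TGFB1, and nearer to the middle in TGFB3. The SD of −ΔCT, pooled over the passages, was 0.495 for SMURF1, 0.677 for SMURF2, 0.696 for TGFB1 and 1.26 for TGFB3. They ranked 4th, 10th, 12th and 24th from the smallest of the 84 genes, whose median SD was 2.19. Among the 51 genes detected in all 18 samples, where no value is set by the limit, the median was 1.45. TGFB3 lay not far below it. The smallest SD values of the array belonged to RHOA (0.240), a small GTPase of the cytoskeleton and a known SMURF1 substrate, VIM (0.305), the intermediate filament protein vimentin, and SMAD4 (0.365), the shared signal transducer. The plot of spread against mean CT shows the 4 genes in its lower part.

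**Figure D2:**
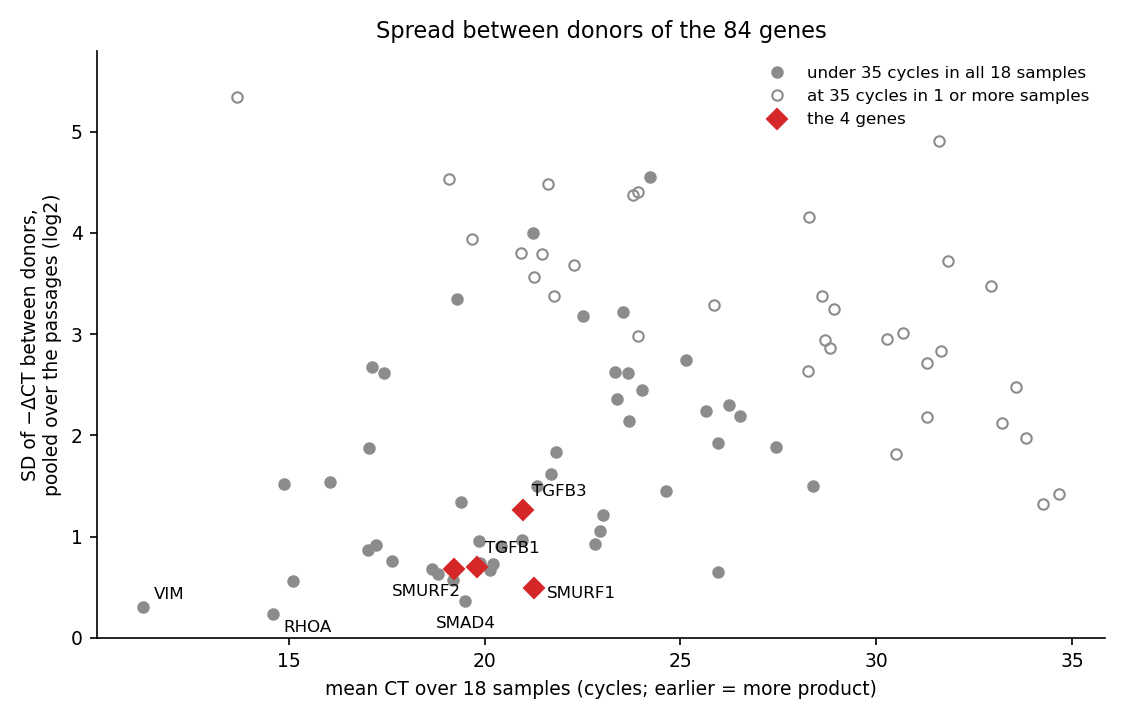
SD of −ΔCT between donors, pooled over P6 and P3 (vertical axis, log2), against the mean CT over 18 samples (horizontal axis, cycles) for the 84 genes. Filled points are genes detected in all 18 samples, open points genes at the limit of 35 cycles in 1 or more samples, and red diamonds the 4 genes, whose SD runs from 0.495 (SMURF1) to 1.26 (TGFB3).

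The balance of the ligands and of the ligases was compared by ratios of wells of the same sample, which do not depend on the reference genes. The log2 ratio of TGFB1 to TGFB3 had a lowest value of 0.70, a median of 1.18 and a highest of 3.17 at P6, and a lowest of −0.40, a median of 0.50 and a highest of 4.04 at P3. No donor had more signal of TGFB3 than of TGFB1 at P6, and 2 donors (5 and 9) had at P3. The mean was 1.50 ± 0.953 at P6 and 0.87 ± 1.40 at P3 (SD, n = 9 donors each). The difference of 0.63 (SE 0.564) was not past the test (exact permutation test, two-sided p = 0.278, adjusted p = 0.539 over 2 ratios), and the ratio was higher at P6 in 6 of 9 donors. With the pairs used, the exact sign-flip test gave p = 0.156 (two-sided, adjusted p = 0.312).
Values by the ending of the donor's name, 22 in 5 donors and 21 in 4, differed: the mean change of this ratio was 1.33 ± 0.747 in the donors ending in 22, with 5 of 5 higher at P6, and −0.23 ± 1.03 (SD) in those ending in 21, with 1 of 4 higher. Among the donors ending in 22 alone, the ratio averaged 1.44 at P6 and 0.12 at P3 (exact permutation test, two-sided p = 0.00794, adjusted p = 0.0159 over 2 ratios). That test does not use the pairs, and the sign-flip test of the same 5 donors gave its smallest possible p (exact, two-sided p = 0.0625). The difference between the endings was 1.56 (exact permutation test over 126 divisions of the donors, two-sided p = 0.0397, adjusted p = 0.238 over the 6 quantities compared, the 4 genes and the 2 ratios). This comparison of endings was added after seeing the data, and the labels do not say what the ending stands for. The study lists donor ages under the same names, and the 2 oldest dogs, donors 8 and 9, both end in 22. Their changes of this ratio were 2.55 and 1.49. A part of age in this difference was not tested.

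**Figure D3:**
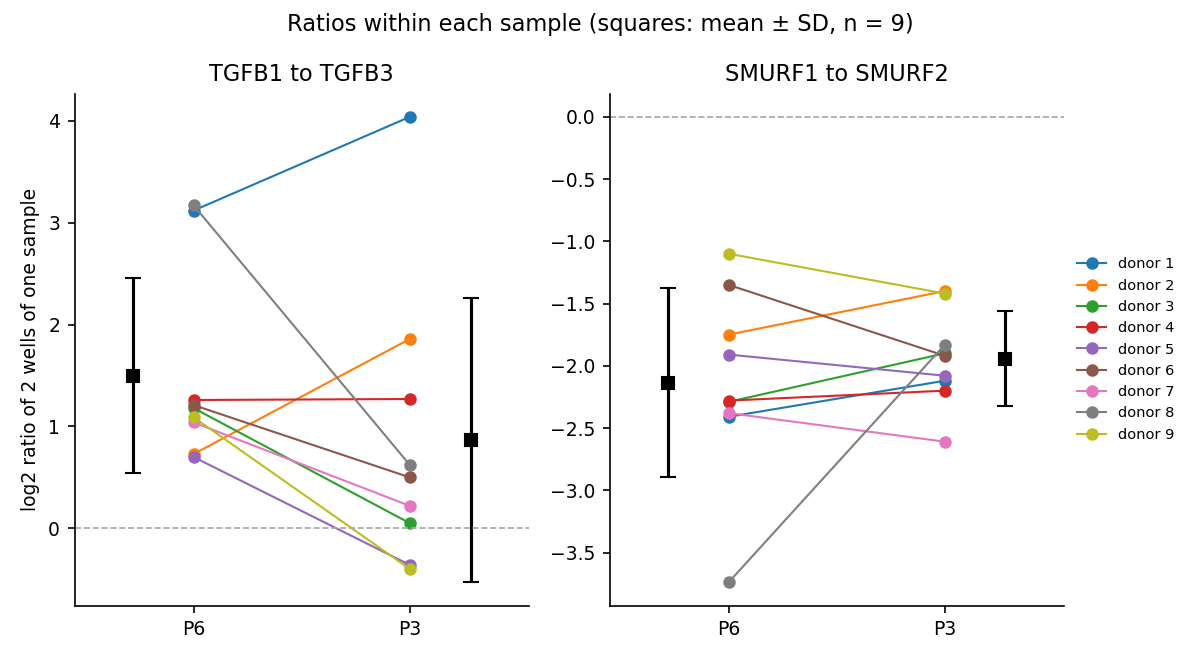
Log2 ratio of TGFB1 to TGFB3 (left panel) and of SMURF1 to SMURF2 (right panel) within each sample, at P6 and at P3. Lines join the 2 samples of 1 donor, squares are the mean ± SD of 9 donors, and the dashed line marks equal signal. Donors 5 and 9 lie above equality for the ligands at P6 and below it at P3, and donor 8 at P6 (−3.74) lies lowest for the ligases.

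The log2 ratio of SMURF1 to SMURF2 averaged −2.13 ± 0.762 at P6 and −1.94 ± 0.378 at P3 (SD, n = 9 donors each). It ran from −3.74 (donor 8) to −1.10 (donor 9) at P6 and from −2.61 to −1.40 at P3. The difference of −0.19 (SE 0.284) was not past the test (exact permutation test, two-sided p = 0.539, adjusted p = 0.539 over 2 ratios), and without donor 8 it was 0.022. Of the 9 donors, 5 had a lower ratio at P6.

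The changes within donors were set against each other to see whether the 4 genes moved in the same dogs. SMURF1 and SMURF2 had the same direction in 8 of 9 donors, and TGFB1, SMURF1 and SMURF2 together in 7 of 9, all 3 genes higher at P6 in 4 donors (3, 7, 8 and 9) and all lower in 3 (2, 4 and 5). Some of these directions rest on changes near 0: SMURF2 changed by 0.027 in donor 7 and by −0.073 in donor 2. Donor 5 is the donor whose P3 sample stood apart. The plan held the 6 pairs and not this set of 3, which leaves out TGFB3. Its count has no count over other genes of the array beside it. TGFB1 and TGFB3 shared a direction in 4 of 9 donors. Across the 9 donors the changes of TGFB1 and SMURF1 correlated with Pearson's r = 0.77 (exact p = 0.0192, 0.0841 after adjustment over 6 pairs) and Spearman's rho = 0.68 (exact p = 0.0503, adjusted 0.101), by permutation of the pairings. Those of SMURF1 and SMURF2 correlated with r = 0.66 (exact p = 0.0280, adjusted 0.0841) and rho = 0.77 (exact p = 0.0214, adjusted 0.101). Neither relation passed the adjustment. By distance from the median change of the first-named gene, the 2 outermost donors were 4 and 9 for TGFB1 and 1 and 4 for SMURF1. When they were left out, r was 0.70 (exact permutation test, p = 0.0871) for TGFB1 and SMURF1 and 0.60 (exact permutation test, p = 0.128) for SMURF1 and SMURF2. TGFB1 and SMURF2 had r = 0.46 (exact p = 0.214, adjusted 0.346) and rho = 0.70 (exact p = 0.0433, adjusted 0.101). The 3 pairs with TGFB3 had r from −0.45 to 0.11 and rho from −0.32 to 0.20. Both changes of a pair carry the same reference mean. The median of the detected genes, put in its place, is also shared by the pair, so the part of a shared reference in r was not tested. With it r was 0.73 for TGFB1 and SMURF1 and 0.77 for SMURF1 and SMURF2. It was −0.58 for TGFB3 and SMURF1 and −0.67 for TGFB3 and SMURF2 (exact permutation test, unadjusted p = 0.101 and 0.0560). With the reference genes and without the 2 farthest donors, r of these last 2 pairs was 0.35 and 0.43. No r was computed within the name endings, which hold fewer than 6 donors each.

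**Figure D4:**
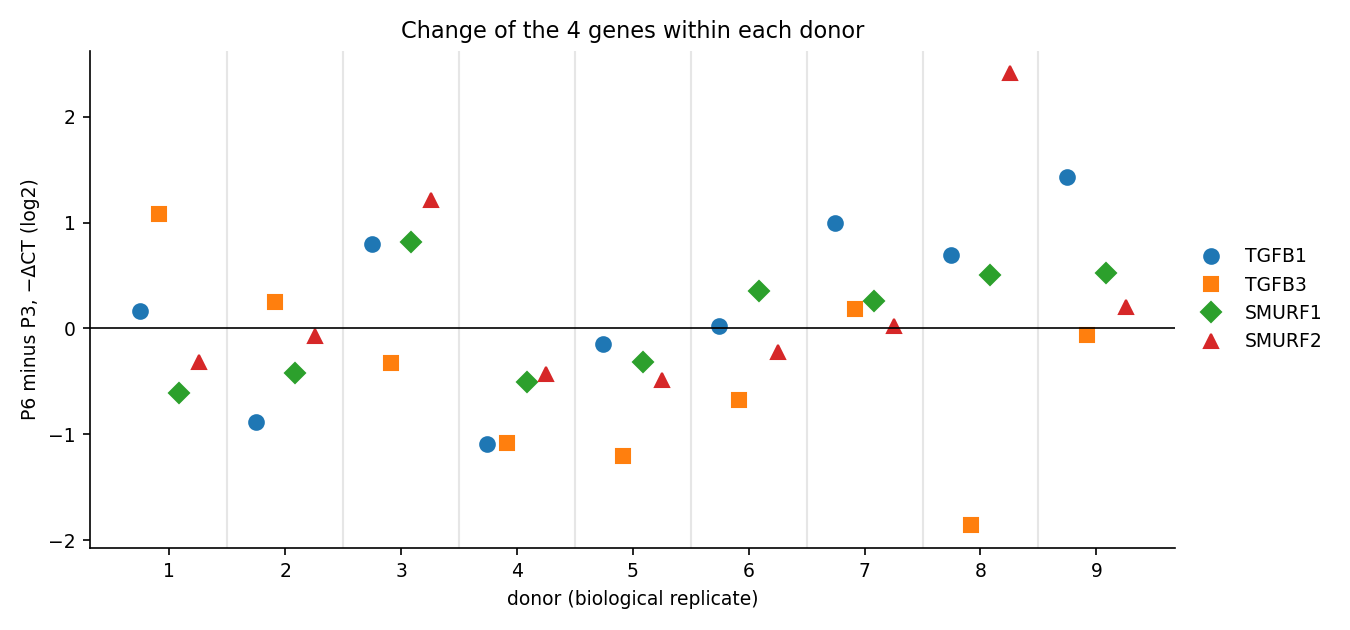
Change of the 4 genes within each donor, P6 minus P3 of −ΔCT (vertical axis, log2), by donor (horizontal axis). Points above the line at 0 were higher at P6. TGFB1, SMURF1 and SMURF2, a set that was not planned and leaves out TGFB3, lie on the same side of the line in 7 of 9 donors. The widest gap is in donor 8, with SMURF2 at 2.41 and TGFB3 at −1.86.

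Whether a donor kept its level between the passages was asked after the values had been seen. TGFB3 at P6 and at P3 correlated across the 9 donors with Pearson's r = 0.81 (exact p = 0.00901, 0.0360 after adjustment over 4 genes) and Spearman's rho = 0.58 (exact p = 0.108, adjusted 0.432), again by permutation. Without donors 1 and 5, the lowest and the highest at P3, r was 0.41 (exact permutation test, p = 0.337), so the relation did not hold without those 2 donors. It was 0.54 (exact permutation test, p = 0.169) without donor 1 alone and 0.77 (exact permutation test, p = 0.0210) without donor 5 alone. With the median of the detected genes as the reference it was 0.92 (exact permutation test, p = 0.00337). For SMURF1 r was 0.44 and rho 0.45, for TGFB1 0.26 and 0.28, and for SMURF2 0.0032 and 0.25 (exact permutation test, adjusted p of r from 0.477 to 0.992).

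The genes with the pattern most like each of the 4 were sought by Spearman's rho of −ΔCT after subtraction of the passage means, over the 18 samples and the other 83 genes. These coefficients are a description, since the 18 samples come from 9 dogs and all values share the reference mean of their sample. SMURF1 had the closest neighbours: PTK2 (0.87), which encodes focal adhesion kinase, CTNNB1 (0.78), which encodes β-catenin, and BDNF (0.74), a neurotrophin. For SMURF2 they were FASN (0.73), the fatty acid synthase, CD44 (0.66), the hyaluronan receptor, and CSF3 (0.63), the granulocyte growth factor. For TGFB1 they were FASN (0.63), HDAC1 (0.63), a histone deacetylase, and VWF (0.58), the von Willebrand factor. HDAC1 was detected in 16 of the 18 samples and CSF3 in 17, so values set to the limit enter their coefficients. For TGFB3 the first 2 were FGF10 (0.68), a fibroblast growth factor, and VIM (0.65). With the median of the detected genes as the reference, PTK2, CTNNB1 and BDNF stayed the first 3 for SMURF1 (0.89, 0.85 and 0.79), while VWF was at rank 11 for TGFB1, VIM at rank 10 for TGFB3, and CD44 at rank 7 and CSF3 at rank 22 for SMURF2. By Pearson's r in place of rho, PTK2 stayed first for SMURF1 (0.84), HDAC1 was second for TGFB1 (0.69), and CTNNB1 (0.56, rank 6 for SMURF1), VWF (0.45, rank 9), VIM (0.45, rank 7) and CD44 (0.33, rank 15) stood lower. Among the 4 genes themselves, SMURF2 ranked 4th and TGFB3 6th for TGFB1 (rho 0.54 and 0.50), and SMURF2 ranked 16th for SMURF1 (rho 0.41). TGFB1 and SMURF1, whose changes within donors had the highest r, had a rho of 0.098 here (rank 41 of 83). With the median reference rho was 0.70 for SMURF1 and SMURF2, 0.36 for TGFB1 and SMURF2 and 0.26 for TGFB1 and SMURF1.

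Other genes of the pathway on the array were read beside the 4, in lists drawn up by role. None of these 17 genes passed limma at an adjusted p under 0.05 in either direction (adjusted p from 0.873 to 0.996). In bulk RNA of a culture, fewer cells with a transcript and less transcript per cell cannot be told apart, and this holds for every value here. The 6 other ligands of the family (BMP2, BMP4, BMP7, GDF5, GDF7 and GDF15) had a median difference of −1.01, with 5 of 6 means lower at P6 and 3 of 6 past 2-fold. Over all 84 genes the median was −0.046, 45 means were lower at P6 and 31 (36.9%) were past 2-fold. Only 2 of the 6 were detected in all samples, and their mean CT values ran from 21.46 to 33.81. GDF15, which cells under stress secrete, had lower values at P6 in 8 of 9 donors, with a difference of means of −1.33 (SE 1.00, limma adjusted p = 0.873, and 0.107 with the donor as a block). The means of BMP2 (−1.42) and BMP4 (−1.18), bone morphogenetic proteins, each include 1 sample at the limit, and their medians differed by −0.50 and 1.22.
ENG, the co-receptor endoglin, differed by 0.20 (SE 0.475) and SMAD4 by −0.046 (SE 0.260). The SMAD4 interval of −0.59 to 0.50 was among the narrowest of the pathway. RHOA differed by 0.0049, with −0.48 to 0.49 as its 95% interval, and RUNX2, the osteoblast regulator that SMURF1 is known to degrade in mouse cells, by −0.35 (SE 0.387). The integrin chains ITGAV, which takes part in the release of latent TGF-β, and ITGB1, one of its partners, differed by −0.82 (SE 0.865) and 0.87 (SE 0.720). Their medians differed by 0.17 and 0.24, and 4 and 7 of 9 donors were higher at P6. Of the 5 genes known to respond to TGF-β in mesenchymal cells, ACTA2, the smooth muscle actin, differed by −0.23, VIM by 0.12 and SOX9, the cartilage regulator, by 0.034. MMP2, a gelatinase, differed by 1.43, and COL1A1, a chain of type I collagen whose well did not cross before 35 cycles in 1 sample, by 2.06 with a standard error of 2.40 and a difference of medians of 0.31. The intervals of the ligands other than TGFB1 and TGFB3 were wide beside those of the 4 genes.

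**Figure D5:**
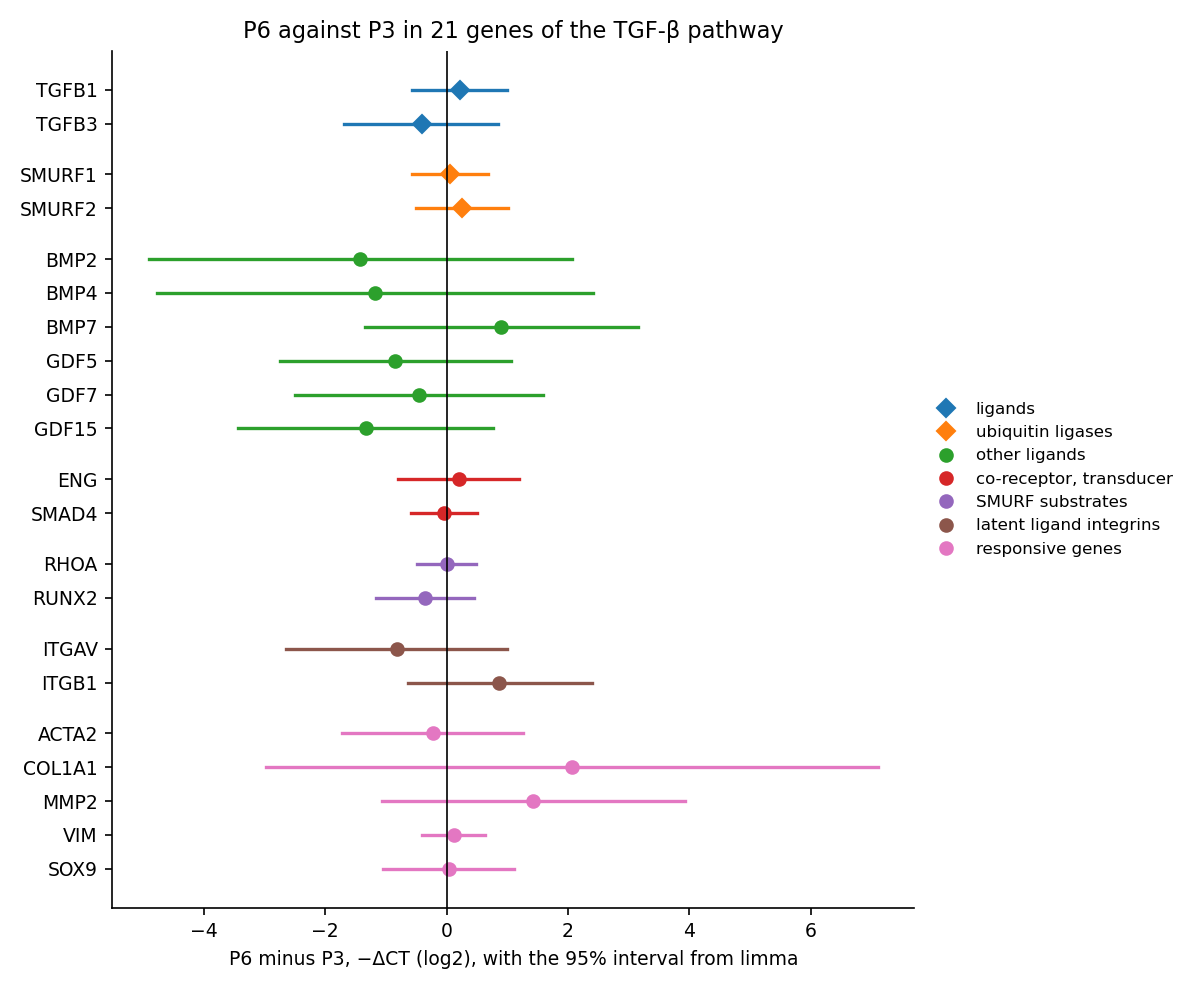
Difference P6 minus P3 of −ΔCT (log2) with its 95% interval from limma for the 4 genes (diamonds) and the 17 other genes of the pathway (circles), coloured by role. Every interval includes 0, and those of SMURF1, SMAD4, RHOA and VIM are the narrowest.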

How the data were processed

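RNA of 18 samples (9 donors, P6 and P3) was measured by RT-qPCR with SYBR Green on a 96-well array, 1 well per gene, after reverse transcription of 800 ng of RNA. The authors deposited CT values per well and sample, in cycles, before any limit, and mean CT values per passage from the array software (limit 35 cycles, geometric mean of 5 reference genes). Their fold changes were not used. No read depth applies, and precision is set by 9 donors and single wells.

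Here a CT above 35 or undetermined was set to 35, −ΔCT was computed, and P6 was compared with P3 by limma 3.58.1 in R 4.3.3 (two-sided, unpaired like the methods' test of linear levels, Benjamini-Hochberg over 84 genes, threshold 0.05). Intervals are limma's 95% intervals. Exact tests used all 48620 divisions of the samples, 512 sign patterns or 362880 pairings (Python 3.11.15, scipy 1.17.1), and figures matplotlib 3.10.9. The procedure was tested on 100 simulated data sets with the spread of each gene. It called 0.4688% of genes without a change, 11.7% of those with a log2 change of 1 and 36.4% of those with 2. Over the 84 genes together, most changes of that size would thus be missed. These shares cover all 84 genes, and the 4 genes had smaller spreads than most. The share for the 4 genes alone was not tested. Their 95% intervals for P6 minus P3 all lay between −1.68 (TGFB3) and 1.02 (SMURF2) on the log2 scale.

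The named genes were the 4 members, fixed pathway lists, and for each member the 3 genes with the highest Spearman's rho, of which 1 is not reported here. Members and lists were chosen with earlier results of these data known. Replicate numbers pair the samples, since both passages come from the same dogs. Deviations of a donor's P6 and P3 samples correlated with a median of 0.16 (0.066 to 0.64), against −0.034 (−0.41 to 0.36) between donors. These ranges overlap, so the pairing rests on the donor names. Alternatives were the donor block, exact and robust tests, medians, CT limits of 40 and 32, undetected wells left out, other references, a mean CT filter of 30, the donor-name ending as split or covariate, each donor left out and the deposited means.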

Additional observations from a re-analysis of the deposited data

Results flagged for a closer look

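A sample is named here when its gap to the nearest other donor took up more than 0.493 of the range of its 9 donors. Of 12 groups of a gene or ratio and a passage, 4 held such a value, from 3 samples, and chance gives about 1 in 20 groups. The groups are not independent, since 2 of the 4 are SMURF2 and a ratio that contains it, in the same sample. TGFB1 of donor 9 at P3 was at −6.82, with the next donor at −5.40. TGFB3 of donor 1 at P3 was at −9.44, with the next at −6.67, and the same donor was also lowest at P6 (−8.36). SMURF2 of donor 8 at P6 was at −2.39, with the next at −4.13, and the log2 ratio of SMURF1 to SMURF2 in that sample was −3.74, with the next at −2.41. In that sample 7 of the 51 genes detected everywhere were the highest and 7 the lowest of the 9 P6 samples, and SMURF1 was at −6.13.

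The change of the TGFB1 to TGFB3 ratio differed by 1.56 on the log2 scale between the donors whose names end in 22 and those ending in 21 (exact permutation test, two-sided p = 0.0397, adjusted p = 0.238). This test was added after seeing the data. The ratio was higher at P6 in 5 of 5 and in 1 of 4 donors.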

How the results depend on the processing

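No alternative brought any of the 4 genes past the threshold. Over 24 tested alternatives each, the adjusted p ran from 0.818 to 0.991 for TGFB1, 0.741 to 1.00 for TGFB3, 0.881 to 0.998 for SMURF1 and 0.783 to 0.995 for SMURF2. TGFB3 kept its sign in all of them, though at −0.022 in the donors ending in 21, against −0.73 in those ending in 22. In the donors ending in 21 alone, TGFB1 differed by −0.25, SMURF1 by −0.18 and the TGFB1 to TGFB3 ratio by −0.23. In those ending in 22 alone that ratio differed by 1.33, past the threshold unpaired (adjusted p = 0.0159, exact permutation test). That adjustment does not cover the tests of the other ending. The paired sign-flip test of these 5 donors gave its smallest possible p (exact p = 0.0625) and so could not pass the threshold. With the median of the detected genes as the reference, which moved the median of all genes by −0.16, SMURF1 differed by −0.10, TGFB1 by 0.056 and SMURF2 by 0.092. When each donor was left out, the differences ran from 0.068 to 0.38 for TGFB1, −0.60 to −0.23 for TGFB3, −0.030 to 0.15 for SMURF1 (negative without donor 3), −0.014 to 0.35 for SMURF2 (negative without donor 8), 0.39 to 0.85 for the ligand ratio and −0.29 to 0.022 for the ligase ratio (positive without donor 8). The cause of these turns was not tested.

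Genes called over the array numbered 1, and 0 to 2 when each donor was left out (0 without donors 1, 3, 7, 8 or 9, and 2 without donors 4 or 5). There were 2 with the replicate block, with the median reference and with the mean CT filter, 3 with robust regression, and 0 without ACTB and B2M, with undetected wells left out, in either name ending, by the exact permutation test, by the sign-flip test with the replicate block and by the methods' test after adjustment. At an unadjusted p under 0.05, limma had 5 genes without ACTB and B2M, 2 with undetected wells left out, 3 in the donors ending in 21 and 5 in those ending in 22, the exact permutation test had 5, the sign-flip test 7 and the methods' test 4. Over all 9 donors, the paired fits changed no call among the 4 genes or the 2 ratios.

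Correlations of changes turned sign as follows: TGFB1 with TGFB3 was −0.17 without the 2 farthest donors, −0.38 with the median reference and −0.070 to 0.30 when each donor was left out. TGFB3 with SMURF1 was 0.35 without the 2 farthest donors, −0.58 with the median reference and −0.43 to 0.046 with each donor left out, and TGFB3 with SMURF2 was 0.43, −0.67 and −0.61 to 0.14. For SMURF2, P6 with P3 was −0.20 without the 2 farthest donors, −0.034 with the median reference and −0.083 to 0.41 with each donor left out. All of these settings for P6 with P3 were chosen after seeing the data. Single wells, 9 donors and the reference genes limit every value.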
